A study of Homo sapiens with 6 samples.

Results

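The subject is a set of 10 human genes for acute-phase and complement proteins, SERPINA1, SERPINA3, ORM1, C1R, C1S, C3, CFB, LCN2, SAA1 and SAA2, taken by Ensembl identifier from a table of 58336 genes. All 10 were found. They were chosen by name with their CPM levels (counts scaled to a library total of 1000000) in all 6 libraries known, so those levels are a description and no test of the set. The 6 RNA libraries came from SUM159 cells, a human line of triple-negative breast cancer, labelled as high or low in ITGB4, the beta-4 subunit of a laminin-binding integrin. The groups were ITGB4-low cells taken from lungs of mice co-injected with LM2 cells (clones 1 and 3, n = 2), ITGB4-low clone 1 from mouse lungs treated with tracheal bleomycin (n = 1), ITGB4-high cells (n = 1), and ITGB4-low control cells (clones 1 and 3, n = 2). LM2 cells descend from the MDA-MB-231 breast cancer line and colonise the lung, and bleomycin is a drug that injures the lung. Lungs were dissociated, the suspension was kept in culture overnight and tdTomato-positive cells were sorted, whereas the control and ITGB4-high cells grew in dishes. Passage through the lung, overnight culture and sorting therefore go with the LM2 and bleomycin triggers and cannot be told apart from them. Each ITGB4-low line is 1 clone, and clone 3 of the LM2 group is named only in a title, since the treatment description gives clone 1 alone.

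The acute phase is the shift in secreted plasma proteins that follows injury or infection, made mostly by liver cells in response to interleukin-6 and interleukin-1, with STAT3, C/EBP and NF-kB factors acting at the genes. Complement is a cascade of plasma proteases in which C1r and C1s start the classical pathway, factor B drives the alternative pathway, and all routes meet at C3. Epithelial and tumour cells can also make several of these proteins. In the lung, alpha-1-antitrypsin, the product of SERPINA1, is known for restraining neutrophil elastase.

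Sequences are shown for the genes whose levels differed most between libraries and that have a RefSeq promoter entry, and for the SAA1 and SAA2 pair because its reads are hard to assign. RefSeq promoter windows (GRCh38.p14, 250 bases before to 50 after a start) matched 6 of the 10 genes, SERPINA1, SERPINA3, ORM1, C1R, CFB and LCN2. Capitals mark matches on either strand to an NF-kB-type motif (GGGA and CC with 4 free bases between them), a C/EBP-type motif TTNNGNAA or a STAT-type motif TTCNNNGAA. The windows run 5′ to 3′ along the gene's strand.
SERPINA1, upstream start (chr14:94390586-94390885, minus strand): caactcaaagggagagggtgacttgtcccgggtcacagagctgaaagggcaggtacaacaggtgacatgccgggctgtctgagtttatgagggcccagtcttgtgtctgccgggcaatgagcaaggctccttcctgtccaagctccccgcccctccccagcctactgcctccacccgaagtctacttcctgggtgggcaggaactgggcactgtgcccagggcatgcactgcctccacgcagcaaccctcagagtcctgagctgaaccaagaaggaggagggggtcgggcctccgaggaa
SERPINA1, downstream start (chr14:94388553-94388852, minus strand): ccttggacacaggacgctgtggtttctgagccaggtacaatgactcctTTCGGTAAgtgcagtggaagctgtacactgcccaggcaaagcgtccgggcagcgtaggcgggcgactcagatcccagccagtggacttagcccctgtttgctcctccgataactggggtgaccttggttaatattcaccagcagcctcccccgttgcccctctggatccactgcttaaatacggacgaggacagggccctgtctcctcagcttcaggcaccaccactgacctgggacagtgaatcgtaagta
SERPINA3 (chr14:94612141-94612440, plus strand): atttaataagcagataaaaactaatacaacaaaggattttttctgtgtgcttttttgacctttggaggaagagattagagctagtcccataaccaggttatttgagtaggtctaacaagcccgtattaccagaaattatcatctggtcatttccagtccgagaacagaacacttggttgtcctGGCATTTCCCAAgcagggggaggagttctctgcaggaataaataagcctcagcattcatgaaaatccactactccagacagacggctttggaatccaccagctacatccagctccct
ORM1 (chr9:114322848-114323147, plus strand): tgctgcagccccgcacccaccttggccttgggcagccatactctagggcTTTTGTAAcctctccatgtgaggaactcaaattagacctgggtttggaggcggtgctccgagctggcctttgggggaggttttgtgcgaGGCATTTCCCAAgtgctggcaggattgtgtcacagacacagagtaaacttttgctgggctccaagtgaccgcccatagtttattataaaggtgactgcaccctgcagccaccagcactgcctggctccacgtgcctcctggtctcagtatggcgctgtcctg
LCN2 (chr9:128149203-128149502, plus strand): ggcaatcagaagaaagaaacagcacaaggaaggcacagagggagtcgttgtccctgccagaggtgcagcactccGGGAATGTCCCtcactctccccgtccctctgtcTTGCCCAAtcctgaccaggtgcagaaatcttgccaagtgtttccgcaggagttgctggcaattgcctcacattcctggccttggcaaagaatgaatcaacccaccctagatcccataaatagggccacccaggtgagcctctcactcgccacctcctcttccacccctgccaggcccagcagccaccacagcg
The upstream SERPINA1 window held none of the 3 motifs, and the downstream one held a single C/EBP-type match. SERPINA3, whose product inhibits chymotrypsin-like proteases, and ORM1 held the same run of 12 capitals, GGCATTTCCCAA, in which an NF-kB-type and a C/EBP-type match overlap. LCN2 held an NF-kB-type stretch that matched on both strands at adjacent positions, and a C/EBP-type match. Both C1R windows held NF-kB-type and C/EBP-type matches, and the CFB window held 2 NF-kB-type matches and 1 STAT-type match. Among 35116 RefSeq promoters of 300 bases, 25.6% held the NF-kB-type motif, 36.8% the C/EBP-type motif and 7.66% the STAT-type motif, so these matches are a description of the letters and not evidence of binding.

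The last 300 bases of the SAA1 and SAA2 coding sequences (chromosome 11, from base 67, without the stop codon, GENCODE release 29) follow, with capitals at the bases that differ between them.
SAA1: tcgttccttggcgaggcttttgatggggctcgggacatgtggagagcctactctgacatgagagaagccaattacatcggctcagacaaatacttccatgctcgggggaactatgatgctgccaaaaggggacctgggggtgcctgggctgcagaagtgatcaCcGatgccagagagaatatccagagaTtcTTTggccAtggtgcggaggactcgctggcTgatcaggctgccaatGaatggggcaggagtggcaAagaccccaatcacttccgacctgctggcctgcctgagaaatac
SAA2: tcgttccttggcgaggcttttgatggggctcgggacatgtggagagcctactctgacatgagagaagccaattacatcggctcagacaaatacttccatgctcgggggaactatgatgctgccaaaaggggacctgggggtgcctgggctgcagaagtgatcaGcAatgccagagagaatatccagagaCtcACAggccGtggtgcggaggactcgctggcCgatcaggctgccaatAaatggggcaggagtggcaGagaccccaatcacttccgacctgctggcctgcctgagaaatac
Both coding sequences are 366 bases long, they differ at 11 positions, 10 of them in the stretch shown (97% identity), and their longest identical run is 186 bases. Of the 50-base stretches in SAA1 transcripts, 46.6% also occur in SAA2 transcripts, and 17.9% of those in SAA2 occur in SAA1. How the deposited counts treated such reads is not given in the sources used here, so the split between SAA1 and SAA2 is uncertain. The same holds for ORM1, which shares 42% of its 50-base stretches with ORM2. ORM2 itself had at most 8 counts, in the bleomycin library. CFB shares 41.4% of its 50-base stretches with AL645922.1, which had 0 counts in all 6 libraries. SERPINA3 shares 29.5% with AL049839.2, which had at most 4 counts. The low counts of CFB and SERPINA3 are therefore uncertain too.

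Libraries held 13607953 to 22222121 counts, and mitochondrial transcripts took 5.35% to 7.08% of them. ITGB4 stood at 306 to 471 CPM (TMM-scaled) in the lung libraries, at 384 in ITGB4-high cells, and at 25.9 and 24.6 in control clones 1 and 3. The ITGB4-high and control libraries thus lay on the side of their labels, while the 3 lung libraries, labelled ITGB4-low for the cells that were injected, had ITGB4 at the level of ITGB4-high cells. VIM averaged 3133 CPM and PGR had 0 counts in all 6 libraries, while EPCAM, CDH1 and ESR1 had at most 6 counts each. A limit of 3 counts, the most that a count of 0 leaves possible, was 0.138 to 0.233 CPM, and it covers counting error only. In bulk RNA, fewer cells that express a gene and less RNA per cell cannot be told apart.

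SERPINA1 (ENSG00000197249, chromosome 14, 94376747 to 94390693, minus strand, hg38) was high in every lung library and low elsewhere. It had 142.6 CPM in LM2 clone 1, 102.5 in clone 3 and 187.1 in bleomycin clone 1, against 10.2 in ITGB4-high cells and 7.06 and 6.16 in control clones 1 and 3. The lung libraries averaged 144 ± 42.3 CPM (SD, n = 3) and the controls 6.61 ± 0.64 (SD, n = 2), with no overlap and a wide gap between them. Set against the control of its own clone, the level was 20.2-fold higher in LM2 clone 1 (95% counting interval 16.5 to 24.9), 16.6-fold in LM2 clone 3 (13.9 to 20.0) and 26.5-fold in bleomycin clone 1 (21.7 to 32.6). These 3 ratios lay closer together than those of any other gene of the set with a ratio in all 3 pairs. ITGB4-high cells, with ITGB4 as high as in the lung, stood only 1.45-fold (1.11 to 1.89) and 1.66-fold (1.30 to 2.12) above control clones 1 and 3.

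The other inhibitor of this group, SERPINA3 (ENSG00000196136, chromosome 14, 94612377 to 94624055, plus strand), had few counts. It had 0.465 CPM in LM2 clone 1, 2.24 in clone 3 and 0.641 in bleomycin clone 1, against 0.073 in ITGB4-high cells and 0.139 and 0.23 in control clones 1 and 3. Those levels are 6, 35 and 10 counts in the lung libraries, 1 in ITGB4-high cells, and 2 and 5 in the controls. The lung libraries were above both controls, with LM2 clone 3 the highest. Only the LM2 clone 3 ratio, 9.74-fold (3.80 to 31.8), had a counting interval that leaves out 1.

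The carrier proteins were each high in a different subset of libraries. ORM1 (ENSG00000229314, chromosome 9, 114323056 to 114326475, plus strand), which encodes the plasma carrier orosomucoid, had 13.1 CPM in the bleomycin library (204 counts) and 0.803 in ITGB4-high cells (11 counts). It had 2 and 3 counts in LM2 clones 1 and 3, and 0 and 1 in control clones 1 and 3, all at or under the 3-count limit. Bleomycin clone 1 was at least 62.9-fold higher than control clone 1, with that control at the 3-count limit of its own library. It was 84.4-fold higher than LM2 clone 1 on the 2 counts there (counting interval 23.1 to 702).

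LCN2 (ENSG00000148346, chromosome 9, 128149071 to 128153455, plus strand) encodes lipocalin 2, which binds bacterial iron carriers. It had 3.49 CPM in LM2 clone 1, 0.0639 in clone 3, 1.28 in bleomycin clone 1 and 3.65 in ITGB4-high cells, against 0.139 and 0.138 in control clones 1 and 3. The counts were 45, 1, 20 and 50 in those 4 libraries, and 2 and 3 in the controls. The 3 high libraries were thus ITGB4-high cells and the lung cells of clone 1, while LM2 clone 3 was as low as the controls. ITGB4-high cells were 26.3-fold (6.92 to 224) and 26.5-fold (8.55 to 133) above control clones 1 and 3.

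**Figure D1:**
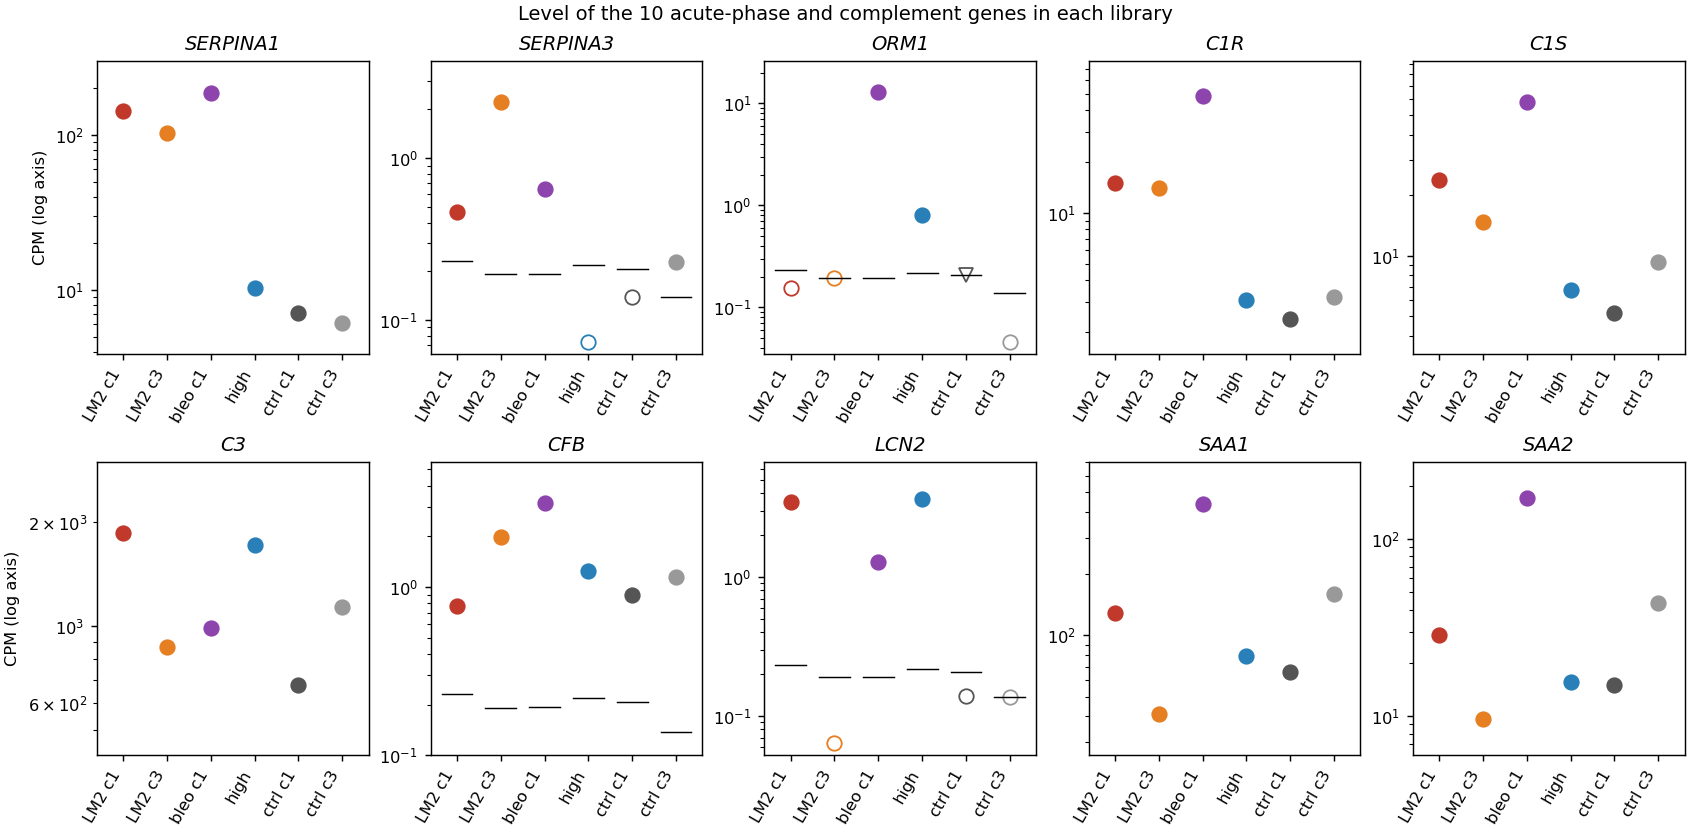
Level of each gene in CPM (log axis) in the 6 libraries, 1 point per library, with a horizontal mark at the level of 3 counts where a level comes near it; open symbols are at or below 3 counts and the open triangle is a count of 0 drawn at the limit. SERPINA1, C1R and C1S are highest in the 3 lung libraries, from LM2 clone 1 to bleomycin clone 1, while LCN2 is high in LM2 clone 1, bleomycin clone 1 and ITGB4-high cells.

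C1R and C1S, the 2 proteases of the complement C1 complex, lie side by side on chromosome 12 (C1R, ENSG00000159403, 7080199 to 7092607, minus strand, and C1S, ENSG00000182326, 6988259 to 7071032, plus strand). C1R had 14.9 CPM in LM2 clone 1, 14.1 in clone 3 and 48.8 in bleomycin clone 1, against 3.06 in ITGB4-high cells and 2.35 and 3.17 in control clones 1 and 3. C1S had 23.7, 14.7 and 57.9 CPM in the same 3 lung libraries, against 6.79 in ITGB4-high cells and 5.20 and 9.33 in control clones 1 and 3. Both genes were above both controls in every lung library and were highest in the bleomycin library. ITGB4-high cells lay between the controls for both.

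Over its own control, C1R was 6.35-fold higher in LM2 clone 1 (4.39 to 9.43), 4.43-fold in LM2 clone 3 (3.37 to 5.90) and 20.7-fold in bleomycin clone 1 (14.7 to 30.1). C1S was 4.57-fold (3.53 to 5.96), 1.58-fold (1.30 to 1.91) and 11.2-fold (8.81 to 14.3) higher in those libraries. The bleomycin library exceeded LM2 clone 1, which holds the same clone, 3.26-fold for C1R and 2.44-fold for C1S. The pair did not keep 1 ratio: C1S counts were 1.05 to 1.58 times those of C1R in the lung libraries, 2.21 times in ITGB4-high cells, and 2.21 and 2.94 times in control clones 1 and 3. The C1R exons overlap those of C1RL on the same strand over 11.4% of their bases, and C1RL itself had 42.3, 47.6 and 62.8 CPM in the lung libraries, 39.4 in ITGB4-high cells and 52.8 and 64.9 in the controls.

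C3 (ENSG00000125730, chromosome 19, 6677704 to 6730562, minus strand), the protein on which all complement routes meet, had the most reads of the set. It had 1859 CPM in LM2 clone 1, 868.5 in clone 3, 987 in bleomycin clone 1 and 1713 in ITGB4-high cells, against 676.5 and 1131 in control clones 1 and 3. By CPM per kilobase of merged exons it ranked between 83 and 315 of the 15673 tested genes, so it was abundant in every library, dish-grown controls included. The lung and control values overlapped. Within clone 1, C3 was 2.75-fold higher with LM2 (2.69 to 2.81) and 1.46-fold higher with bleomycin (1.422 to 1.497), whereas LM2 clone 3 was 1.30-fold lower than its control. ITGB4-high cells were 2.53-fold above control clone 1 and 1.51-fold above control clone 3.

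CFB (ENSG00000243649, chromosome 6, 31945650 to 31952084, plus strand), which encodes factor B, the protease of the alternative pathway, had few counts. It had 0.775 CPM in LM2 clone 1, 1.98 in clone 3, 3.14 in bleomycin clone 1 and 1.24 in ITGB4-high cells, against 0.9 and 1.15 in control clones 1 and 3. The bleomycin library was the highest, 3.49-fold above its control (1.86 to 7.01), and the intervals of both LM2 ratios took in 1.

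SAA1 and SAA2, the inducible serum amyloid A apolipoproteins, lie at chromosome 11, 18266174 to 18269977 on the plus strand (ENSG00000173432) and 18239223 to 18248643 on the minus strand (ENSG00000134339). SAA1 had 128.6 CPM in LM2 clone 1, 41.4 in clone 3 and 438.8 in bleomycin clone 1, against 79.5 in ITGB4-high cells and 66.0 and 158.3 in control clones 1 and 3. SAA2 had 28.8, 9.65 and 169.9 CPM in the lung libraries, against 15.6 in ITGB4-high cells and 15.0 and 43.8 in control clones 1 and 3. For both genes the bleomycin library was the highest and LM2 clone 3 the lowest of the 6, so the lung values lay on both sides of the controls.

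In clone 1, SAA1 was 1.95-fold higher with LM2 (1.80 to 2.11) and 6.65-fold higher with bleomycin (6.21 to 7.12), and SAA2 was 1.92-fold (1.62 to 2.28) and 11.3-fold (9.84 to 13.04) higher. In clone 3 with LM2, SAA1 was 3.83-fold lower and SAA2 4.54-fold lower than in the control. The SAA1 to SAA2 count ratio was 4.46 in LM2 clone 1, 4.29 in clone 3 and 2.58 in bleomycin clone 1, against 5.09 in ITGB4-high cells and 4.39 and 3.61 in control clones 1 and 3. The 35 other tested genes within 5 Mb, with a mean of 1 CPM or more, moved with part of this pattern. Their median log2 ratio to the clone's control (CPM plus 0.5) was 0.74 in LM2 clone 1, 0.67 in bleomycin clone 1 and 0.09 in LM2 clone 3, and its part in the SAA values was not tested. Around SERPINA1, C1R and C1S, C3 and ORM1, the same medians lay between -0.18 and 0.08.

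**Figure D2:**
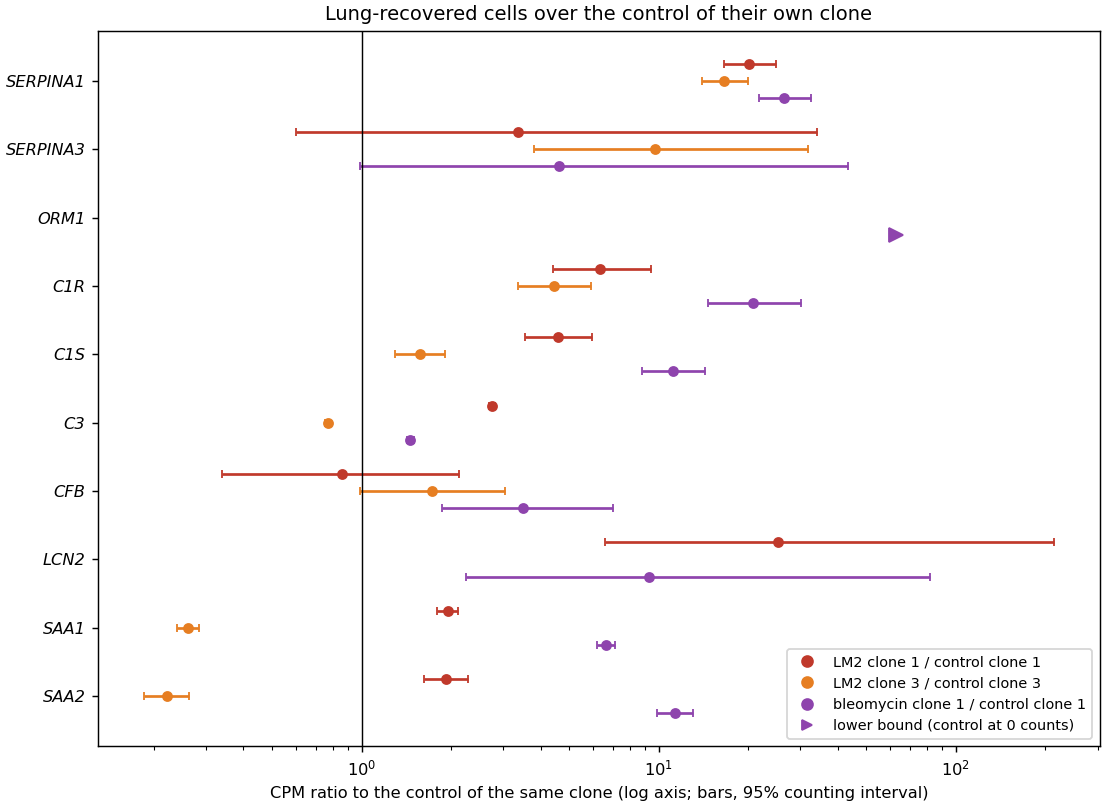
CPM of each lung library over the control of its own clone (log axis), with 95% counting intervals as bars; ORM1 with bleomycin is a lower bound, and pairs with both libraries at or under 3 counts are left out. All 3 SERPINA1 ratios lie between 16.6 and 26.5, while C3, SAA1 and SAA2 lie above 1 in both clone 1 pairs and below 1 in clone 3.

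Levels can be compared between genes only per length, and CPM per kilobase of merged exons was used for that. On this scale SAA1 and C3 led the set in every library. SAA1 stood at 162, 52 and 551 CPM per kb in LM2 clones 1 and 3 and bleomycin clone 1, at 99.8 in ITGB4-high cells, and at 82.9 and 198.9 in control clones 1 and 3. C3 stood at 223, 104 and 118 in the lung libraries, 206 in ITGB4-high cells, and 81.2 and 136 in the controls. SAA1 ranked 23 of 15673 genes in bleomycin clone 1, against 307 in control clone 1. SERPINA1 ranked 1499, 2056 and 926 in the lung libraries, against 9571 in ITGB4-high cells and 10797 and 11060 in control clones 1 and 3.

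**Figure D3:**
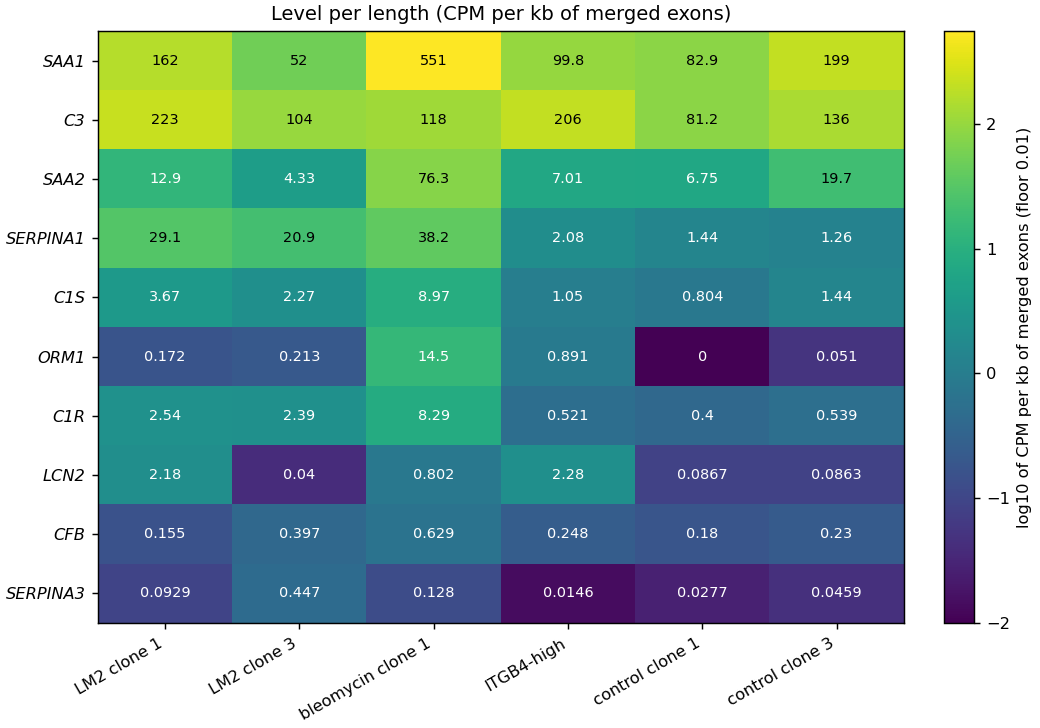
Level per length, in CPM per kilobase of merged exons, for the 10 genes (rows, in order of their mean) in the 6 libraries (columns), coloured on a log10 scale. SAA1 and C3 are high in every column, and SERPINA1 stands between 20.9 and 38.2 in the lung columns and between 1.26 and 2.08 in the others.

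In the fit across all genes, the 3 lung libraries were set against the 2 controls with edgeR's quasi-likelihood test. Of the 3 lung libraries 2 are clone 1, so they are not separate clones. All 10 genes had a fitted log2 change above 0, from 0.45 (SE 0.40) for C3 to 4.45 (SE 0.32) for SERPINA1, apart from ORM1 at 6.999 (SE 2.90), which has 0 and 1 counts in the controls. The members' median was 2.33, beside 0.0028 for all 15673 tested genes, and describes genes chosen with their levels known. It includes ORM1, LCN2 and SERPINA3, which passed the filter on low counts only through libraries in which they were high. Between the ends lay LCN2 at 3.44 (SE 1.46), C1R at 3.22 (SE 0.69), SERPINA3 at 2.52 (SE 0.91), C1S at 2.13 (SE 0.65), SAA2 at 1.23 (SE 1.18), CFB at 0.94 (SE 0.60) and SAA1 at 0.85 (SE 0.95). Without the bleomycin library SAA1 and SAA2 turned to -0.40 and -0.62. An adjusted p under 0.05 was reached by 1 of the 10, SERPINA1, and by 0.498% of all tested genes (0.268% higher and 0.23% lower). SERPINA1 was under it in neither of the fits without a control nor in the fit without the bleomycin library. All 3 lung libraries lay above both controls for 5 of the 10 (SERPINA1, SERPINA3, ORM1, C1R and C1S), and for 20.4% of all tested genes. Below both lay 0 of the 10 and 25.4% of all tested genes. ORM1 is counted there on 2 and 3 counts in LM2 clones 1 and 3, against 0 and 1 in the controls. Those counts are all at or under the 3-count limit. Since the genes were chosen with these levels known, nothing is read from those shares or from the median.

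Pair by pair, a level at least 2-fold higher than in the clone's control was seen for 6 of the 10 in LM2 clone 1 (9.4% of all tested genes), for 3 in LM2 clone 3 (6.67%) and for 9 in bleomycin clone 1 (8.4%). The 3 of LM2 clone 3 were SERPINA1, SERPINA3 and C1R, and in the bleomycin library C3 alone was below that line. SERPINA3 is also counted in LM2 clone 1 and bleomycin clone 1, where its counting intervals took in 1 (0.60 to 34 and 0.986 to 43.4). Bleomycin clone 1 was at least 2-fold above LM2 clone 1 for 6 of the 10 (9.05%), and LM2 clone 1 above LM2 clone 3 for 4 (7.01%). ITGB4-high cells were at least 2-fold above control clone 1 for ORM1, C3 and LCN2 (8.24%) and above control clone 3 for ORM1 and LCN2 (10.6%). These counts are likewise a description. All 10 genes passed the filter on low counts, but ORM1, SERPINA3 and LCN2 did so only through libraries in which they were high.

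ITGB4-high cells, set against the same 2 controls, had fitted log2 changes of 4.65 (SE 1.62) for LCN2, 0.92 (SE 0.51) for C3 and 0.63 (SE 0.37) for SERPINA1. SERPINA3 (-1.29), SAA2 (-0.92), SAA1 (-0.50) and C1S (-0.11) were below 0, and C1S, SAA1 and SAA2 turned above 0 without control clone 3. No value was past the threshold in edgeR, DESeq2 or limma-voom. Without the filter on low counts LCN2 passed it. At an unadjusted p under 0.05 edgeR held 1 of the 10, beside 25.7% of all tested genes. The adjusted threshold was passed by 3.59% of all tested genes. That last percentage rests on the classes: with LM2 and bleomycin cells as separate groups the number of genes called was 14, against 563, and with the clone as a block it was 337. Lung cells against ITGB4-high cells gave SERPINA1 at 3.82 (SE 0.42), C1R at 3.08 and C1S at 2.24, and LCN2 and C3 below 0 at -1.20 and -0.47. Of the 10, 0 passed the adjusted threshold in edgeR, beside 0.108% of all tested genes (0.0319% higher and 0.0766% lower). An unadjusted p under 0.05 in edgeR was held by 4 of the 10, beside 18.3% of all tested genes. DESeq2 called 3 of the 10, beside 6.93% of all genes, and limma-voom called 0, beside 0.0957%.

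Other genes of these pathways were counted in 6 lists with 113 genes, of which 59 were tested. In lung cells against control 0 of the 59 were called by edgeR and by limma-voom and 13 by DESeq2, which called 8.06% of all tested genes. An unadjusted p under 0.05 in edgeR was held by 22 of the 59, beside 20.5% of all tested genes. Lung cells against ITGB4-high cells also gave 0 in edgeR and limma-voom and 9 in DESeq2, which called 6.93% of all tested genes. There 13 of the 59 had an unadjusted p under 0.05 in edgeR, beside 18.3% of all tested genes. In ITGB4-high cells against control, 2 rose and 1 fell, beside 1.36% of all tested genes higher and 2.23% lower. All 3 calls were lost in the fit with 4 groups, and without either control or the bleomycin library. The comparisons with control share their 2 control libraries.

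Among other acute-phase proteins (24 listed, 12 tested) the median fitted log2 change in lung cells was 0.09, with 6 genes on each side of 0. PTX3, a pentraxin of inflamed tissue that binds microbes, had 585.9, 367.6 and 103.1 CPM in LM2 clones 1 and 3 and bleomycin clone 1, against 32.4 in ITGB4-high cells and 595.9 and 629.6 in the controls. MT2A, a metal-binding metallothionein, had 358.2, 119.5 and 452.2 CPM in the lung libraries, against 186.6 in ITGB4-high cells and 137.2 and 193.6 in the controls. PTX3 was thus below both controls in all lung libraries, and MT2A was above them in clone 1 only. Other complement components (26 listed, 7 tested) had a median of -0.14, and C1QA, C1QB, C1QC, C8A, C8B, FCN2 and MBL2 had 0 counts in all 6 libraries. C5, which starts the terminal pathway, was at 5.11, 12.5 and 12.9 CPM in the lung libraries, against 9.85 in ITGB4-high cells and 11.2 and 11.3 in the controls.

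Complement inhibitors (11 listed, 8 tested) had a median of -0.09 in lung cells and -0.58 in ITGB4-high cells, against control. CD55, which speeds the decay of C3 convertases on the cell surface, was at 418.2, 269 and 296.5 CPM in the lung libraries and 433.1 in ITGB4-high cells, against 131.3 and 121.8 in the controls. It rose in ITGB4-high cells (log2 1.78, SE 0.27, edgeR adjusted p = 0.0364), and in lung cells the change was 1.37 (SE 0.22, edgeR adjusted p = 0.0654). CD46 stayed between 172.6 and 257.2 CPM in all 6 libraries. CD59 was at 419.3, 116.3 and 213.5 CPM in the lung libraries, against 249.8 in ITGB4-high cells and 141.1 and 195.4 in the controls. It was thus above its control in clone 1 and below it in clone 3. CLU was lower in every lung library (16.7, 46.3 and 17.7 CPM) than in the controls (64.6 and 84.2).

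Complement receptors (10 listed, 4 tested) were scarce, and in lung cells against control 2 of the 4 had a fitted change above 0 and 2 below. C5AR2, the non-classical C5a receptor, had 8.37, 1.53 and 9.23 CPM in the lung libraries, against 2.04 in ITGB4-high cells and 0.693 and 1.52 in the controls. C3AR1, the C3a receptor, had 3.41, 0.192 and 2.50 CPM in the lung libraries, against 0.511 in ITGB4-high cells and at most 0.0693 in the controls. C5AR2 and C3AR1 were above both controls in all lung libraries, as were 20.4% of all tested genes. In LM2 clone 3, C5AR2 was level with control clone 3 (1.534 against 1.517 CPM). C3AR1 had 3 counts there, at the 3-count limit, against 1 in each control. ITGB2, the beta chain of the leukocyte integrins that include complement receptors, had 0.387, 0.448 and 3.27 CPM in the lung libraries, against 0.073 in ITGB4-high cells and 3.46 and 1.33 in the controls (log2 -0.77 for lung cells, SE 0.97). C5AR1, the main C5a receptor, had 1.86, 1.09 and 1.22 CPM in the lung libraries, against 0.219 in ITGB4-high cells and 1.59 and 1.52 in the controls (-0.17, SE 0.37). The lung values of ITGB2 and C5AR1 overlapped those of the controls. The other serpin genes of the 14q32 cluster around SERPINA1 (9 listed) were nearly silent, and SERPINA6, the only one tested, had 10, 2 and 11 counts in the lung libraries, against 2 in ITGB4-high cells and 0 in both controls.

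Inducers and factors of the acute phase (33 listed, 27 tested) had a median log2 change of 0.45 in lung cells, with 19 above 0 and 8 below. IL6ST, the shared receptor chain of the interleukin-6 family, was at 1704, 1370 and 1330 CPM in the lung libraries, against 880.9 in ITGB4-high cells and 1659 and 1662 in the controls. NFKB1 was at 645.9, 263.2 and 289.2 CPM in the lung libraries, against 270.8 in ITGB4-high cells and 186.2 and 188.8 in the controls, and STAT3 was at 286.5, 255.6 and 315.9 in the lung libraries, against 188.2 in ITGB4-high cells and 232.6 and 315.9 in the controls. OSMR was at 519.5, 408.2 and 423.1 CPM in the lung libraries, against 246.8 in ITGB4-high cells and 407.4 and 445.3 in the controls. IL6 and IL1A were named after their values were seen. IL6 had 68.5, 8.57 and 26.7 CPM in the lung libraries, against 4.09 in ITGB4-high cells and 2.01 and 2.80 in the controls (log2 3.82 for lung cells, SE 0.94, edgeR adjusted p = 0.127). IL1A had 970.9, 62.2 and 63.6 CPM in the lung libraries and 282.1 in ITGB4-high cells, against 9.14 and 7.68 in the controls (5.44, SE 1.601, edgeR adjusted p = 0.162). In ITGB4-high cells IL6R, the interleukin-6 receptor, rose to 70.9 CPM against 16.8 and 20.0 in the controls (1.95, SE 0.26, edgeR adjusted p = 0.0315). JAK2, a kinase of cytokine receptors, fell to 4.45 CPM against 27.8 and 31.7 (-2.74, SE 0.37, edgeR adjusted p = 0.0315).

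**Figure D4:**
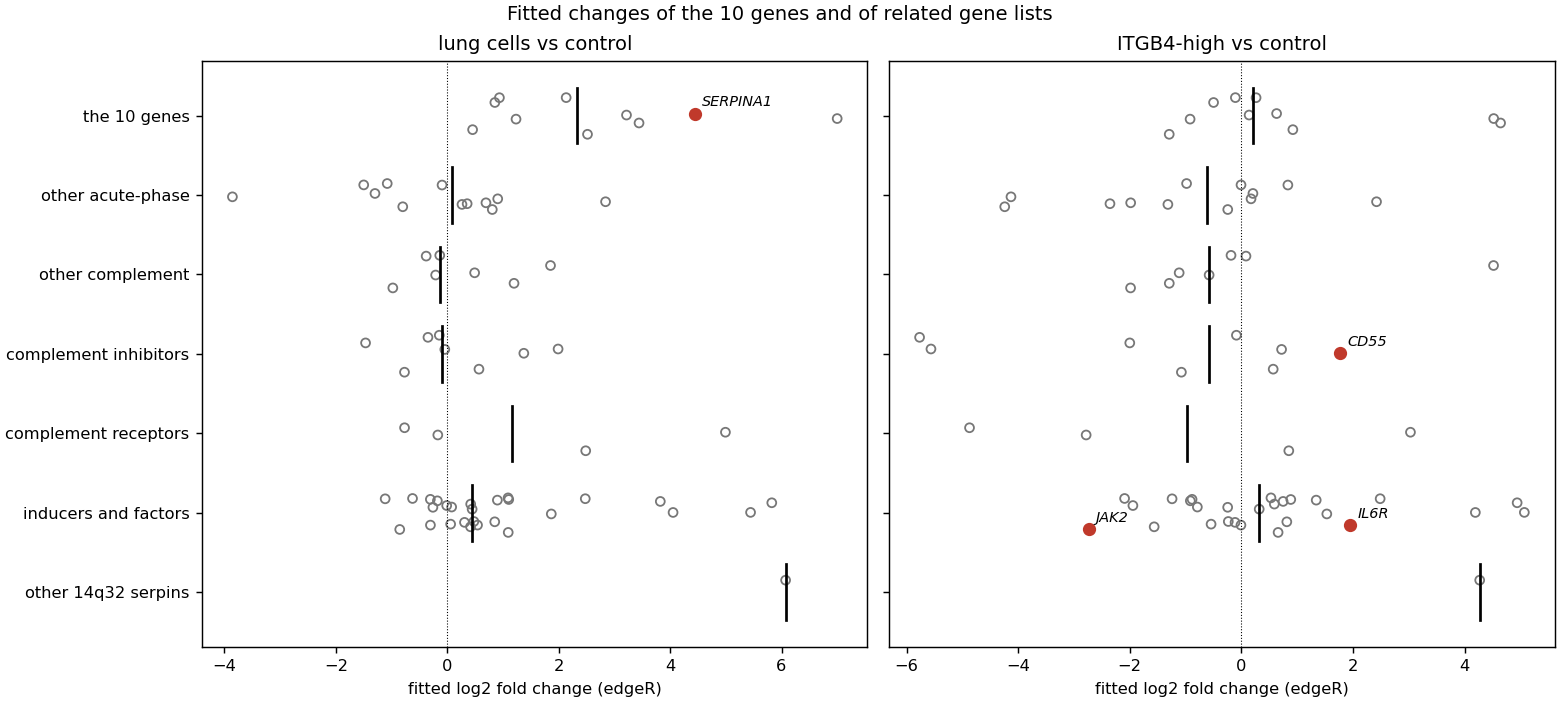
Fitted log2 change (edgeR) of the 10 genes and of the tested genes of each list, for lung cells against control (left) and ITGB4-high cells against control (right), with 1 point per gene, the median as a black bar and filled points at an adjusted p under 0.05. The filled points are SERPINA1 on the left and CD55, IL6R and JAK2 on the right. The median of the 10 genes, which were chosen with their levels known, lies at 2.33 on the left.

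Across the 6 libraries the members' log2 levels formed 2 close pairs, SAA1 with SAA2 (r = 0.991) and C1R with C1S (r = 0.972), with SERPINA1 nearest to C1R (r = 0.9496). C3 was nearest to LCN2 (r = 0.859), and the lowest value was that of SERPINA3 with LCN2 (r = -0.347). These are descriptions over 6 libraries, of which 3 are clone 1 and all share the lung against dish contrast. Of 10122 other genes, the one most like the members' mean pattern was RAB27B (r = 0.987), at 27.9, 19.6 and 62.1 CPM in the lung libraries, 17.9 in ITGB4-high cells and 12.3 and 14.6 in the controls. B4GALT6, LRCH1, TCP1, IFI27, SNX9, GLUD1 and PITPNC1 followed, with r of 0.971 or more. The genes most like SERPINA1 were ARHGEF4, ARHGEF3 and NUP188 (r of 0.993 or more). Those most like LCN2 were TLE3, ZC3H12C and ELK3 (0.993 or more), and those most like C3 were SHISA5, ZYX and CAPZA1 (0.973 or more). The value r takes no account of the size of a change. NUP188 lay between 114.7 and 140.8 CPM and ARHGEF3 between 1.33 and 13.08, against 6.16 to 187.1 for SERPINA1. TCP1 lay between 254.3 and 330.4 CPM, and SHISA5 between 82.77 and 105.8.

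Markers of other cell types were read beside these levels. The counts are for human genes on hg38 and the lungs were of mice, so low marker values cannot show whether mouse lung cells were present. The 8 hepatocyte markers, 5 of them above the 3-count limit somewhere, summed to 0.256 to 1.67 CPM in the lung libraries, against 2.701 in ITGB4-high cells and 4.29 and 0.276 in the controls. ALB was at most 1.09 CPM in the lung libraries. The 8 alveolar and airway markers summed to 0.155 to 0.449 CPM in the lung libraries, against 0 in ITGB4-high cells and 0.346 and 0.322 in the controls, and SFTPC, SFTPA1, SCGB1A1, SCGB3A1 and SCGB3A2 had 0 counts in all 6 libraries. The 8 myeloid markers, 6 of them above the 3-count limit somewhere, summed to 1.47 to 6.86 CPM in the lung libraries. The sums were 2.04 in ITGB4-high cells and 2.42 and 1.29 in the controls. Of the 4 tested, 3 had a fitted change above 0 in lung cells against control and 1 below. PTPRC alone lay above both controls in all lung libraries, with 30, 4 and 42 counts in LM2 clones 1 and 3 and bleomycin clone 1. It had 1 count in ITGB4-high cells and 3 and 4 in the controls, so LM2 clone 3 lay near the 3-count limit. The 7 neutrophil markers, 3 of them above that limit somewhere, summed to 20.1 CPM in the bleomycin library and to 0.697 and 1.41 in LM2 clones 1 and 3, against 6.28 in ITGB4-high cells and 3.05 and 3.17 in the controls. S100A9 made 15.8 CPM and S100A8 3.78 CPM of the bleomycin sum, while ELANE had 7 counts there and CSF3R and MPO had 0. FCGR3B and S100A12 had 0 counts everywhere. S100A9 was also at 5.69 CPM in dish-grown ITGB4-high cells. Bleomycin clone 1 is also the library where SERPINA1, ORM1, C1R, C1S, CFB, SAA1 and SAA2 were highest. Whether cells of another type added to those levels was not tested. The 6 fibroblast markers, all above that limit somewhere, summed to 573, 823 and 499.9 CPM in the lung libraries. The sums were 199.6 in ITGB4-high cells and 124.5 and 161.2 in the controls. PDGFRA made 449.1 CPM of the sum in LM2 clone 1, and COL1A1 made 711.7 CPM in LM2 clone 3. Only COL1A1 and COL1A2 were above both controls in all lung libraries. PDGFRA and DCN were below both controls in LM2 clone 3, at 27.55 and 12.78 CPM. COL3A1 had 14.8, 70.64 and 44.42 CPM in the lung libraries, against 38.86 and 74.37 in the controls. LUM had at most 4 counts. The part of these fibroblast markers was not tested. The 6 endothelial markers, 3 of them above that limit somewhere, summed to 2.56 to 11.3 CPM in the lung libraries, against 6.13 in ITGB4-high cells and 72.9 and 107.8 in the controls, with CDH5 at 0 everywhere. KDR alone made 70.8 and 105.3 CPM of the 2 control sums. PECAM1 went the other way, at 2.33, 3.64 and 9.42 CPM in the lung libraries against 1.80 and 2.02 in the controls.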

How the data were processed

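Per the labels' protocols, libraries were made from oligo-dT-selected RNA with the strand-marking KAPA mRNA HyperPrep kit. The submitters' processing notes name STAR 2.7.1a and the build hg38. The authors deposited raw counts per gene as whole numbers, in 1 column per library. Which counter, annotation release and strand setting were used is not given in the sources used here. Gene names, coordinates and exon lengths came from GENCODE release 29 (58216 of 58336 identifiers matched).

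CPM used TMM factors. Groups were compared by the quasi-likelihood test of edgeR 4.0.16 (R 4.3.3) with robust dispersion and a minimum count of 10 in filterByExpr, which left 15673 genes, and Benjamini-Hochberg adjustment over them at 0.05. All 6 libraries entered 1 fit with 3 classes, lung, ITGB4-high and control (3 residual degrees of freedom; common coefficient of biological variation 0.243), so the lone ITGB4-high library is assumed to vary like the others. The p-values reflect only how far these libraries spread, which may be technical. Standard errors were derived from the log2 change and its F value. Ratios within a clone carry exact 95% counting intervals, which cover counting error only. Alternatives were RLE factors, no filter, a minimum count of 30, DESeq2 1.42.0, limma-voom (limma 3.58.1), the clone as a block, each library left out, and, added after seeing the data, a fit with 4 groups.

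The clone numbers pair the libraries, since by its title each number is 1 clone. The correlation of their deviations from the group means was 0.0012 over 15673 genes. The members and gene lists were chosen with earlier results of these data known. Named genes were the 10 members, all listed genes called in any comparison, up to 4 of each list with the highest mean CPM, and the genes most like the members (Pearson's r of log2 CPM, mean of 5 CPM or more). 1 listed gene is not reported here and was left out of the lists and their counts. The fits were tested on simulated data.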

Additional observations from a re-analysis of the deposited data

Results flagged for a closer look

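C3, SAA1 and SAA2 moved in opposite directions in the 2 clones recovered with LM2 cells. The log2 ratio to the control of the same clone was 1.46 in LM2 clone 1 and -0.38 in LM2 clone 3 for C3, 0.96 and -1.94 for SAA1, and 0.94 and -2.18 for SAA2. The counting interval of each ratio left out no change, but each clone has 1 library per condition, so the difference between clones was not tested. The SAA1 and SAA2 values are not independent, since the genes share much of their sequence.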

How the results depend on the processing

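With an adjusted p under 0.05 in lung cells against control, the 1 member and 0 listed pathway genes of the edgeR fit became 4 and 15 without the filter on low counts, 3 and 13 with DESeq2, and 0 to 3 and 0 to 10 with 1 library left out, both highest without LM2 clone 3. For ITGB4-high cells against control, 0 members and 3 pathway genes became 1 and 16 without the filter and 13 pathway genes with DESeq2, 0 pathway genes with 4 groups, and 0 to 1 (LCN2, without LM2 clone 3) and 0 to 17 (highest without LM2 clone 1) with 1 library left out. For lung cells against ITGB4-high cells, 0 and 0 became 2 and 9 without the filter, 3 and 9 with DESeq2, and 0 to 1 (SERPINA1, without LM2 clone 1 or 3) and 0 to 10 (highest without LM2 clone 1) with 1 library left out. The count over all genes also rose without the filter and with DESeq2. In lung cells against control it was 78, and 2152 without the filter, 1263 with DESeq2, 39 with the clone as a replicate block and 0 to 1012 with 1 library left out. In ITGB4-high cells against control it was 563, and 2648 without the filter, 2182 with DESeq2 and 337 under the block. In lung cells against ITGB4-high cells it was 17, and 1406, 1086 and 0 in the same order. Without the filter 33274 genes were tested. As shares of all tested genes, lung cells against control gave 0.498% in the edgeR fit, 6.47% without the filter and 8.06% with DESeq2. In the same order the shares were 3.59%, 7.96% and 13.9% for ITGB4-high cells against control. They were 0.108%, 4.23% and 6.93% for lung cells against ITGB4-high cells. With 1 library left out, the count over all genes is given for lung cells against control only, so nothing is read from the other ranges. The block changed no call of a member or pathway gene. SERPINA1 in lung cells against control had an edgeR adjusted p of 0.0149, and of 0.057 without bleomycin clone 1, 0.242 without control clone 1 and 0.282 without control clone 3, at log2 changes of 4.21, 4.57 and 4.34. Without control clone 1 or 3 a class is left with 1 library, which is assumed to vary like the others.

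Directions turned in these cases. In lung cells against control, SAA1 and SAA2 ranged with 1 library left out from -0.40 and -0.62 (without bleomycin clone 1) to 1.62 and 2.21 (without control clone 3). In ITGB4-high cells against control, C1R, C1S, SAA1 and SAA2 were at -0.0534, -0.46, -0.9988 and -1.49 without control clone 1, and at 0.37, 0.38, 0.26 and 0.0489 without control clone 3. In lung cells against ITGB4-high cells, ORM1 was at -2.15 without bleomycin clone 1, at 3.065 without LM2 clone 3 and at -0.0959 with 4 groups. The cause was not tested, beyond the 13.1 CPM of ORM1 in the bleomycin library. Scaling by plain totals moved 6 of 60 member levels past their counting intervals. SERPINA3, ORM1, LCN2 and CFB rest on few counts, which limits their ratios.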
